A study of Mus musculus with 24 samples.

Results

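The genes that carry fatty acids into muscle fibres and burn them in the mitochondria were followed in mouse diaphragm through the first week of infection with the parasitic nematode Trichinella spiralis. The set is a list of 34 genes that runs from uptake at the cell surface to the last thiolase. A listed gene became a member where 2 or more arrays of a set gave a probe for it a detection p-value below 0.01, the sets being the 8 Rag1-/- arrays and the 16 PHIL and WT arrays. By this rule 31 of the 34 genes were members on Rag1-/- arrays and 29 on PHIL and WT arrays, out of 8660 and 8226 genes that passed the same filter. Ppara, the nuclear receptor that drives many of these genes, was detected on 0 of the 24 arrays, Cd36 and Hadh were detected on 0 of the 16 PHIL and WT arrays, and Acsl1 and Hadha were not analysed here.

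Each array held RNA of 1 whole diaphragm from a mouse on the C57BL/6 background. Infected mice had received 25000 newborn larvae by retro-orbital injection, and their diaphragms were taken 2 or 7 days post infection (dpi). Each of the 3 strains had 3 diaphragms at 2 dpi, 3 at 7 dpi and 2 from naive, that is uninfected, mice. Rag1-/- mice cannot rearrange antigen receptor genes and have no mature T or B cells. PHIL mice lack eosinophils through a transgene in which the eosinophil peroxidase promoter drives a toxin chain. WT mice were unmodified C57BL/6. The labels give neither age nor sex.

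Long-chain fatty acids enter a fibre with the help of membrane and binding proteins and are joined to coenzyme A. The carnitine shuttle then moves them across the inner mitochondrial membrane, where each round of beta-oxidation shortens the chain through a dehydrogenase, a hydratase, another dehydrogenase and a thiolase. Electrons from the first step pass through the electron transfer flavoprotein and its oxidoreductase to the respiratory chain. The diaphragm contracts without rest and is an oxidative muscle for which fat is a main fuel.

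Array depth and labels were examined before the members. The median probe signal was 295.1 to 333.4 on Rag1-/- arrays and 106.3 to 131.9 on PHIL and WT arrays, and 10340 to 11740 and 8847 to 10627 probes were detected per array. Strain and array set therefore cannot be told apart, and levels are compared only within a set. Markers of mature fibres were detected, 23 of 25 being tested in Rag1-/- and 22 of 25 in PHIL and WT. The Rag1 probe was detected on 0 of 8 Rag1-/- arrays and on 1 of 16 PHIL and WT arrays, so it did not check the knockout, whereas Cd3d, Cd3e and Cd3g were detected on 0 Rag1-/- arrays and on 9, 7 and 7 PHIL and WT arrays. All 7 eosinophil markers with a probe were detected on 0 of 24 arrays, so the PHIL label had no check here. Transcripts of the Y-linked gene Eif2s3y were detected on 8 of 8 Rag1-/- arrays, on 0 of 2 PHIL naive, 0 of 3 PHIL 2 dpi and 2 of 3 PHIL 7 dpi arrays, and on 1 of 2 WT naive, 1 of 3 WT 2 dpi and 2 of 3 WT 7 dpi arrays.

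In Rag1-/- diaphragms most members fell with infection; in whole diaphragms fewer fibres and less RNA per fibre cannot be told apart. A call required a p of 0.05 or less from limma after Benjamini-Hochberg adjustment and a log2 change of 0.59 or more in size. At 7 dpi 22 of the 31 tested members were called lower than in naive diaphragms and 0 higher, while 14.9% of all genes tested were called lower and 17.6% higher. The median change was -0.97 on the log2 scale over the members and -0.09 over all genes, and 30 of the 31 members lay below 0, as did 55.5% of all genes. For 28 members all 3 arrays at 7 dpi were below both naive arrays, a separation found for 37% of all genes. At 2 dpi 8 members were called lower and 0 higher (3.05% and 6.8% of all genes), with a median of -0.43 against -0.06 over all genes. Then 28 members and 56.7% of all genes lay below 0, and 18 members (23% of all genes) had all 3 infected arrays below both naive arrays. From 2 to 7 dpi 7 members fell and 0 rose (9.02% and 13.9% of all genes), with a median of -0.45. The comparisons at 2 and 7 dpi share the naive arrays, and without naive replicate 1 or 2 the count at 2 dpi was 3. Without naive replicate 2 the count at 7 dpi was 12, and with the level of Eif2s3y as a covariate it was 1; Eif2s3y itself was lower at 7 dpi than in naive Rag1-/- diaphragms by 0.80 on the log2 scale (limma adjusted p = 0.0235).

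**Figure D1:**
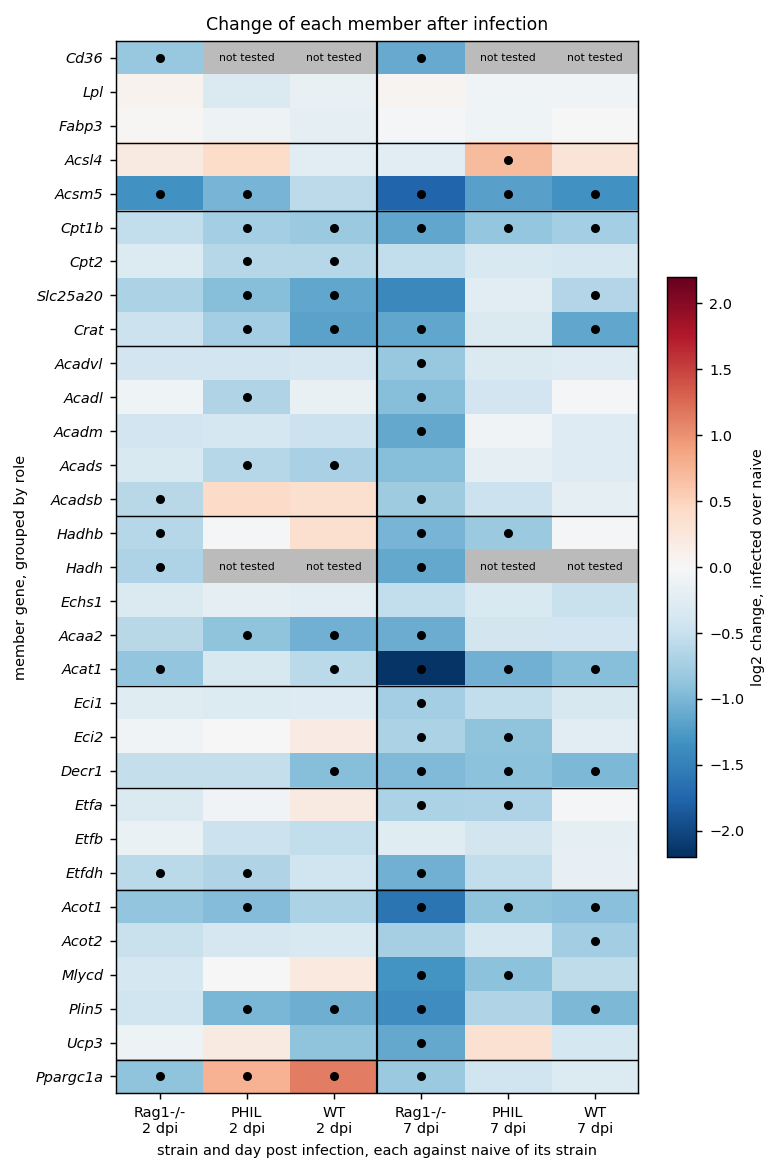
Each cell is the log2 change of 1 member (rows, grouped by role) in 1 strain and at 1 time against naive diaphragms of that strain (columns), blue for lower and red for higher, and a black dot marks a call. The Rag1-/- column at 7 dpi holds 22 dots, all blue, and the red cells with a dot are Ppargc1a in PHIL and WT at 2 dpi and Acsl4 in PHIL at 7 dpi.

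In PHIL and WT diaphragms fewer members were called at 7 dpi, and, as in Rag1-/-, members were called lower already at 2 dpi. In PHIL diaphragms 11 of 29 members were called lower and 1 higher at 2 dpi (7.94% and 10.6% of all genes), and 9 lower and 1 higher at 7 dpi (11.6% and 14.9%). In WT diaphragms 9 were called lower and 1 higher at 2 dpi (10.3% and 13.1%), and 9 lower and 0 higher at 7 dpi (11.8% and 16.3%). From 2 to 7 dpi 7 members fell and 1 rose in PHIL (9.57% and 10.7% of all genes), and 3 fell and 1 rose in WT (8.05% and 10.6%). The median member changed by -0.39 in PHIL and -0.44 in WT at 2 dpi, and by -0.42 and -0.36 at 7 dpi, beside -0.06 and -0.05 at 2 dpi and -0.07 and -0.06 at 7 dpi over all genes. All 3 infected arrays lay below both naive arrays for 20 members in PHIL (33% of all genes) and 19 in WT (33.7%) at 2 dpi, and for 23 in PHIL (36%) and 16 in WT (35.6%) at 7 dpi. Without naive replicate 2 the count in PHIL at 2 dpi was 5, and without 7 dpi replicate 2 that in WT at 7 dpi was 6. The counts also depend on the scaling. When arrays were scaled to a common median instead of quantile normalised, the median of all genes itself moved to 0.20 in PHIL and 0.31 in WT at 2 dpi and to 0.40 and 0.38 at 7 dpi, the calls of members became 3 higher and 4 lower in PHIL and 4 higher and 3 lower in WT at 2 dpi, and 1 higher and 1 lower in PHIL and 1 higher and 2 lower in WT at 7 dpi. Relative to the median of all genes the members then lay at -0.51 in both strains at 2 dpi and at -0.56 in PHIL and -0.58 in WT at 7 dpi. Of all calls under that scaling 88.8% and 92.7% at 2 dpi and 97.5% and 97% at 7 dpi were higher, against 57.3%, 56%, 56.2% and 58.1% under the quantile normalisation.

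**Figure D2:**
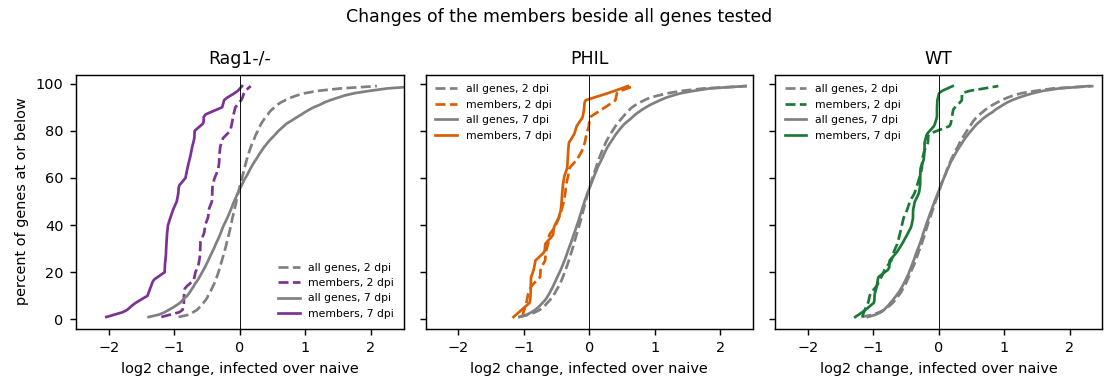
Cumulative percent of genes (vertical axis) at or below each log2 change against naive (horizontal axis), for the members in colour and all genes tested in grey, dashed at 2 dpi and solid at 7 dpi, in 1 panel per strain. The members lie left of all genes in each panel, and in Rag1-/- the solid curve, with its median at -0.97, lies left of the dashed one, with its median at -0.43.

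Calls were also counted by the number of strains that shared them. Of the 29 members measured in all 3 strains, 5 were called lower at 7 dpi in each of Rag1-/-, PHIL and WT: Acsm5, Cpt1b, Acat1, Decr1 and Acot1. Of the 7984 genes measured in both sets 4.7% were called lower in all 3 strains, 6.35% in 2 and 11.6% in 1. Another 6 (Crat, Hadhb, Eci2, Etfa, Mlycd and Plin5) were called lower in 2 strains, 11 in 1 strain, and 7 (Lpl, Fabp3, Acsl4, Cpt2, Acads, Echs1 and Etfb) in 0 strains. At 2 dpi 0 members were called lower in all 3 strains and 10 in 2 strains, beside 0.739% and 5.14% of all genes. These are counts of calls, and a call in 1 strain with none in another is no test of a difference between them. Of the 29 members 7 (Acaa2, Acadl, Acadm, Acsl4, Etfb, Etfdh and Ucp3) were measured by another probe in Rag1-/- than in PHIL and WT.

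Of the 3 uptake and binding genes Cd36 was called lower in Rag1-/-. Cd36, the fatty acid translocase of the plasma membrane, had normalised log2 intensities of 10.44 and 10.38 in naive Rag1-/- diaphragms, of 9.56, 9.64 and 9.51 at 2 dpi, and of 9.26, 9.29 and 9.36 at 7 dpi. The 3 times did not overlap. Cd36 was 1.79-fold lower at 2 dpi (log2 change -0.84, SE 0.11, limma adjusted p = 0.00149) and 2.16-fold lower at 7 dpi (-1.11, SE 0.11, adjusted p = 0.000411) than in naive diaphragms, and the calls held without any single array. Its probe gave raw signals of 858.5 to 1597.9 on Rag1-/- arrays and of 99.8 to 124 on PHIL and WT arrays. Among 23978 named probes, 195 were detected on every Rag1-/- array and on no PHIL or WT array, and 2 the other way round, so the difference in Cd36 between the sets is not read as one between strains.

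Lpl, the lipoprotein lipase that frees fatty acids from circulating triglyceride, read 16.01 and 16.02 in naive Rag1-/- diaphragms, 16.08, 16.10 and 16.08 at 2 dpi, and 16.11, 16.07 and 16.06 at 7 dpi. Its raw signal was 95% to 100% of the highest signal on each of these arrays, and that of Fabp3, the fatty acid binding protein of heart and muscle, 87.3% to 98.9%. At the top of the signal range a change may not show, so no stability is read from the fitted changes at 7 dpi of 0.06 for Lpl (adjusted p = 0.696) and -0.04 for Fabp3 (adjusted p = 0.807). With all 24 arrays normalised together Lpl changed by 0.44 at 2 dpi and 0.34 at 7 dpi in Rag1-/-, and Fabp3 by 0.14 and -0.11. In PHIL and WT diaphragms the changes of Lpl and Fabp3 lay between -0.32 and 0.01 at both times, with 0 calls, and the signal of Lpl was 61.9% to 91.8% of the highest on those arrays.

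In the activation step Acsm5, of the medium-chain acyl-CoA synthetase family, fell in each strain. It read 7.72 and 8.02 in naive Rag1-/- diaphragms, 5.93, 6.40 and 7.27 at 2 dpi, and 6.28, 6.07 and 6.01 at 7 dpi. The infected arrays were all below the naive ones, with a wide spread at 2 dpi. Its probe was detected on 2 of 2 naive, 1 of 3 2 dpi and 0 of 3 7 dpi arrays, which makes it at least 2.64-fold lower at 7 dpi (fitted log2 change -1.75, SE 0.34, adjusted p = 0.00703). The call at 2 dpi (-1.34, adjusted p = 0.0208) was lost without naive replicate 1 (-1.49, adjusted p = 0.0559) or 2 (-1.19, adjusted p = 0.106) and without 2 dpi replicate 2 (-1.27, adjusted p = 0.0511). A bound of this kind sets the naive mean against the lowest signal detected on each infected array, or the probe's own signal where that was higher. In PHIL diaphragms Acsm5 read 7.08 and 7.30 naive, 5.95, 5.95 and 6.57 at 2 dpi, and 6.14, 5.91 and 5.92 at 7 dpi. WT diaphragms gave 7.10 and 7.11 naive, 6.01, 6.71 and 6.91 at 2 dpi, and 6.01, 5.55 and 5.79 at 7 dpi. Both strains had every infected array below the naive ones, by 2.30-fold in PHIL (log2 -1.2, adjusted p = 0.00135) and 2.51-fold in WT (-1.33, adjusted p = 0.000614) at 7 dpi, with the probe detected on 3 of 3 and 2 of 3 arrays.

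Acsl4, an acyl-CoA synthetase that prefers arachidonate, was called higher in PHIL. In PHIL diaphragms it read 5.81 and 6.18 naive, 6.25, 6.52 and 6.43 at 2 dpi, and 6.81, 6.46 and 6.80 at 7 dpi. The naive arrays lay below every infected one, and the probe used was detected on 0 of 2 naive arrays and 3 of 3 at 7 dpi. The signal of this 1 probe was thus at least 1.43-fold higher at 7 dpi (fitted log2 change 0.69, limma adjusted p = 0.00203). Without naive replicate 1 the change was 0.51, under the fold needed for a call. In WT diaphragms it read 6.66 and 6.70 naive, 6.37, 6.56 and 6.35 at 2 dpi, and 6.98, 6.83 and 7.12 at 7 dpi (0.29, adjusted p = 0.115). In Rag1-/- diaphragms the probe used was detected on 3 of 8 arrays, and its values of 6.92 and 6.33 naive, 7.20, 6.71 and 6.59 at 2 dpi, and 6.21, 6.20 and 6.75 at 7 dpi overlapped. At 7 dpi the other probe changed the opposite way in Rag1-/- (0.41), where it was detected on 8 of 8 arrays, and in WT (-0.40). In PHIL the other probe changed the same way, by 0.23. With no filter on dim probes the change at 7 dpi was -0.23 in PHIL and -0.64 in WT, so no direction is settled for this gene.

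**Figure D3:**
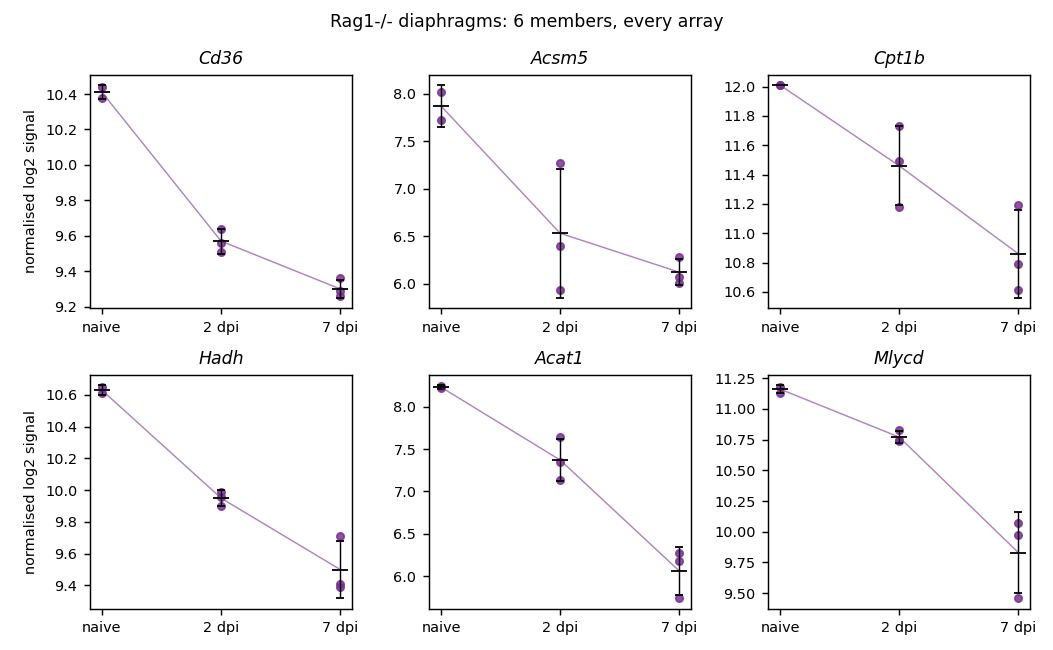
Normalised log2 signal (vertical axis) of 6 members on each of the 8 Rag1-/- arrays, by time (horizontal axis); points are single diaphragms and bars the mean and SD of 2 naive, 3 2 dpi and 3 7 dpi arrays. All arrays at 7 dpi lie below both naive arrays in the 6 panels, and Acat1, with 8.24 and 8.22 naive and 6.27, 6.18 and 5.74 at 7 dpi, shows the widest step.

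Members of the carnitine shuttle were called lower in each strain, at 2 dpi in PHIL and WT and at 7 dpi in all 3. Cpt1b, the muscle carnitine palmitoyltransferase that malonyl-CoA inhibits, read 12.01 and 12.01 in naive Rag1-/- diaphragms, 11.18, 11.49 and 11.73 at 2 dpi, and 10.79, 10.61 and 11.19 at 7 dpi. Every infected array was below the naive ones, with an overlap between 2 and 7 dpi. Cpt1b was 2.21-fold lower at 7 dpi (log2 -1.15, SE 0.21, adjusted p = 0.00594), and its change at 2 dpi was -0.54 (adjusted p = 0.0923). PHIL diaphragms had 10.91 and 10.81 naive, 10.09, 10.02 and 10.21 at 2 dpi, and 9.94, 10.05 and 10.05 at 7 dpi. WT diaphragms had 10.89 and 10.94 naive, 10.08, 10.13 and 10.07 at 2 dpi, and 10.12, 9.90 and 10.46 at 7 dpi. In both strains the infected arrays lay below the naive ones at either time, and Cpt1b was 1.68-fold lower in PHIL (adjusted p = 0.000951) and 1.76-fold lower in WT (adjusted p = 0.000366) already at 2 dpi. Its other probe changed by -0.45 in PHIL and -0.44 in WT at 2 dpi, and by -0.5 in WT at 7 dpi. These sizes are under the fold needed for a call.

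Slc25a20, the translocase that exchanges acylcarnitine for carnitine, had 9.19 and 10.29 in naive Rag1-/- diaphragms, 9.55, 8.23 and 9.32 at 2 dpi, and 7.75, 8.77 and 8.45 at 7 dpi. The naive arrays differed by more than a log2 unit, and the change of -1.41 at 7 dpi did not pass the test (SE 0.48, adjusted p = 0.0608). In PHIL diaphragms it read 8.52 and 8.39 naive, 7.51, 7.76 and 7.29 at 2 dpi, and 8.16, 8.37 and 8.14 at 7 dpi. In WT the values were 8.57 and 8.82 naive, 7.83, 7.43 and 7.40 at 2 dpi, and 7.95, 7.82 and 8.39 at 7 dpi. The arrays at 2 dpi were the lowest in PHIL, and in WT they overlapped those at 7 dpi by 1 array. Slc25a20 was 1.91-fold lower in PHIL (log2 -0.94, adjusted p = 0.00208) and 2.2-fold lower in WT (-1.14, adjusted p = 0.00038) at 2 dpi than in naive diaphragms, and from 2 to 7 dpi it rose in PHIL (0.70, adjusted p = 0.00433). Its call in WT at 7 dpi (-0.64, adjusted p = 0.0126) was lost without naive replicate 2 (-0.51, adjusted p = 0.114) and without 7 dpi replicate 1 (-0.58, under the fold) or 2 (-0.52, adjusted p = 0.0519).

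Crat, the carnitine acetyltransferase that buffers acetyl-CoA, had 8.17 and 8.62 in naive Rag1-/- diaphragms, 8.18, 7.53 and 8.05 at 2 dpi, and 6.93, 7.07 and 7.74 at 7 dpi. Arrays at 7 dpi were all below the naive ones (log2 -1.15, SE 0.29, adjusted p = 0.021), and the call was lost without naive replicate 2 (-0.92, adjusted p = 0.123) and without 7 dpi replicate 1 (-0.99, adjusted p = 0.0663) or 2 (-1.06, adjusted p = 0.0622). In PHIL diaphragms Crat read 7.00 and 7.12 naive, 6.37, 6.29 and 6.28 at 2 dpi, and 6.46, 7.11 and 6.64 at 7 dpi. WT diaphragms gave 7.25 and 7.56 naive, 6.22, 6.38 and 6.09 at 2 dpi, and 6.51, 5.79 and 6.50 at 7 dpi. The arrays at 7 dpi overlapped the naive ones in PHIL (-0.32, adjusted p = 0.236) and lay below them in WT (-1.14, adjusted p = 0.000807). The PHIL response minus the WT response was 0.81 (95% interval 0.17 to 1.46) with an adjusted p of 0.396. The other probe of Crat changed at 7 dpi by -0.47 in PHIL and -0.56 in WT, so the size of this difference depends on the probe. In PHIL at 2 dpi the fall of Crat (-0.74, adjusted p = 0.0175) lost its call without naive replicate 1 (adjusted p = 0.0597) or 2 (adjusted p = 0.0965). Cpt2, which re-forms acyl-CoA inside the inner membrane, fell at 2 dpi in PHIL (-0.62) and WT (-0.63). By the probes used, all 4 shuttle members were thus called lower at 2 dpi in both strains (7.94% and 10.3% of all genes) and 0 of 4 in Rag1-/- (3.05%). The call of Cpt2 was lost without naive replicate 2 (-0.55, adjusted p = 0.0637) in PHIL and was under the fold without 2 dpi replicate 3 in PHIL (-0.55) and without naive replicate 1 or 2 dpi replicate 2 in WT (-0.59 each).

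**Figure D4:**
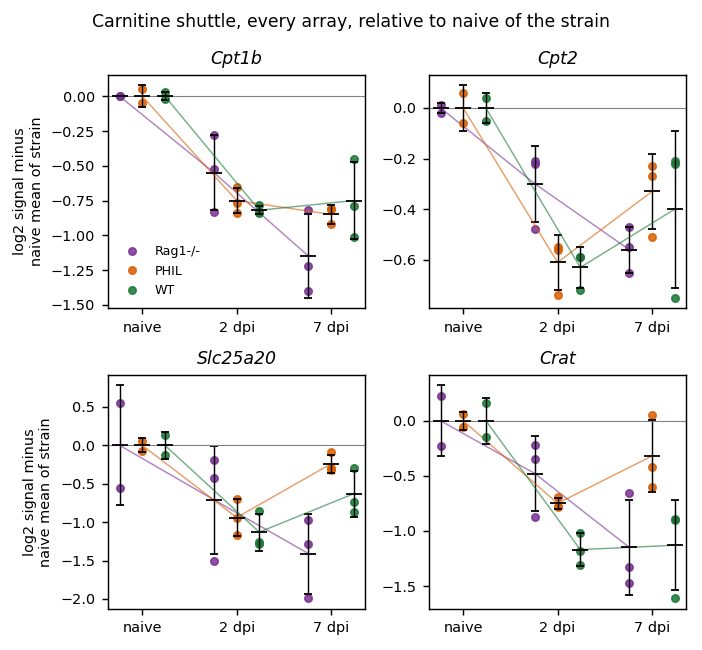
Log2 signal of Cpt1b, Cpt2, Slc25a20 and Crat on every array minus the mean of the naive arrays of its strain (vertical axis), by time (horizontal axis), for Rag1-/-, PHIL and WT; bars are the mean and SD. At 2 dpi the PHIL and WT points lie below 0 in the 4 panels, and at 7 dpi those of Slc25a20 in PHIL lie nearer 0, with a mean change of -0.23 against naive.

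Acyl-CoA dehydrogenases, which start each round of oxidation and differ in the chain length they take, were called lower at 7 dpi in 4 of 5 cases in Rag1-/- diaphragms (14.9% of all genes), in 0 of 5 in PHIL (11.6%) and in 0 of 5 in WT (11.8%). Acadm, for medium chains, read 12.64 and 12.82 in naive Rag1-/- diaphragms, 12.80, 11.93 and 12.18 at 2 dpi, and 11.37, 11.76 and 11.69 at 7 dpi. The arrays at 7 dpi were the lowest (log2 -1.12, SE 0.25, adjusted p = 0.0127), although the other probe of Acadm changed by only -0.31 and the call was lost without naive replicate 2 (-1.03, adjusted p = 0.071). Acads, for short chains, read 7.98 and 8.66 naive, 8.66, 7.56 and 7.75 at 2 dpi, and 7.40, 7.56 and 7.18 at 7 dpi. Its arrays at 7 dpi were below the naive ones without passing the test (-0.94, SE 0.34, adjusted p = 0.0707), and at 2 dpi it fell in PHIL (-0.63) and WT (-0.72). The call in WT was lost without naive replicate 2 (-0.50, adjusted p = 0.108), and that in PHIL without naive replicate 1 (-0.72, adjusted p = 0.0501) or 2 (-0.54, adjusted p = 0.122) or 2 dpi replicate 2 (-0.57, adjusted p = 0.059). Acadvl and Acadl, for very long and long chains, fell in Rag1-/- at 7 dpi by 0.83 and 0.93 on the log2 scale, the call of Acadvl being lost without naive replicate 2 (-0.76, adjusted p = 0.0579).

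Acadsb, the dehydrogenase of short branched chains such as those from isoleucine, had changes of opposite sign at 2 dpi. It read 10.55 and 10.41 in naive Rag1-/- diaphragms, 9.68, 10.06 and 9.88 at 2 dpi, and 9.86, 9.45 and 9.80 at 7 dpi. In PHIL diaphragms it read 7.20 and 7.34 naive, 7.69, 7.68 and 7.72 at 2 dpi, and 6.76, 6.81 and 6.83 at 7 dpi. In WT diaphragms it read 7.62 and 7.60 naive, 8, 7.89 and 7.99 at 2 dpi, and 7.20, 7.61 and 7.36 at 7 dpi. All Rag1-/- arrays at 2 dpi lay below their naive arrays (log2 -0.61, adjusted p = 0.0332), while all PHIL and WT arrays at 2 dpi lay above theirs (0.42 and 0.35, adjusted p = 0.0111 and 0.0221, under the fold needed for a call). With all 24 arrays normalised together the Rag1-/- response minus the WT response was -0.95 (95% interval -1.35 to -0.56, adjusted p = 0.00847), from -0.59 in Rag1-/- and 0.36 in WT. That call was lost without Rag1-/- naive replicate 1 (-0.89, adjusted p = 0.0528), and the call within Rag1-/- at 2 dpi was lost without naive replicate 1 (-0.54, adjusted p = 0.154) or 2 (-0.68, adjusted p = 0.0843) and without 2 dpi replicate 1 (-0.51) or 3 (-0.61, adjusted p = 0.0684). At 7 dpi it fell in Rag1-/- (-0.78, adjusted p = 0.0124), a call lost without naive replicate 1 (-0.71, adjusted p = 0.0746). From 2 to 7 dpi Acadsb fell in PHIL (-0.90, adjusted p = 1.68e-05).

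Among the enzymes that complete the round, Acat1, the mitochondrial acetoacetyl-CoA thiolase that also serves ketone bodies and isoleucine, had the largest change of the members. It read 8.24 and 8.22 in naive Rag1-/- diaphragms, 7.64, 7.13 and 7.35 at 2 dpi, and 6.27, 6.18 and 5.74 at 7 dpi. The 3 times did not overlap. Its probe was detected on all 5 naive and 2 dpi arrays and on 0 of 3 at 7 dpi, which bounds the fall at 7 dpi as at least 3.39-fold against naive and at least 1.87-fold against 2 dpi. The fitted log2 change was -0.86 at 2 dpi (adjusted p = 0.0159) and -1.31 from 2 to 7 dpi (adjusted p = 0.00163), and the call at 7 dpi against naive (-2.16, SE 0.20) held under all 16 settings tried. The call at 2 dpi was lost without naive replicate 1 (-0.84, adjusted p = 0.0727) or 2 (-0.87, adjusted p = 0.0662). In PHIL diaphragms Acat1 read 6.95 and 7.08 naive, 6.73, 6.63 and 6.63 at 2 dpi, and 5.87, 5.71 and 6.31 at 7 dpi. In WT the values were 7.03 and 7.54 naive, 6.81, 6.46 and 6.79 at 2 dpi, and 6.53, 6.14 and 6.35 at 7 dpi. Infected arrays were below naive ones in both, and at 7 dpi Acat1 was 2.07-fold lower in PHIL (adjusted p = 0.000603) and 1.92-fold lower in WT (adjusted p = 0.00122), with the probe detected on 2 of 3 and 3 of 3 arrays. The Rag1-/- response minus the WT response at 7 dpi was -1.05 (adjusted p = 0.0634).

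Hadh, the short-chain 3-hydroxyacyl-CoA dehydrogenase, read 10.65 and 10.61 in naive Rag1-/- diaphragms, 9.90, 9.96 and 9.99 at 2 dpi, and 9.39, 9.41 and 9.71 at 7 dpi. The 3 times did not overlap, and Hadh was 1.60-fold lower at 2 dpi (log2 -0.68, adjusted p = 0.008) and 2.18-fold lower at 7 dpi (-1.13, adjusted p = 0.000844). Like that of Cd36, its probe was detected on 8 of 8 Rag1-/- arrays and 0 of 16 PHIL and WT arrays.

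Hadhb, the thiolase subunit of the mitochondrial trifunctional protein, read 13.29 and 13.04 in naive Rag1-/- diaphragms, 12.51, 12.61 and 12.50 at 2 dpi, and 12.10, 12.03 and 12.32 at 7 dpi. In PHIL diaphragms it read 10.35 and 10.21 naive, 10.29, 10.18 and 10.24 at 2 dpi, and 9.56, 9.27 and 9.54 at 7 dpi. WT diaphragms gave 10.34 and 10.15 naive, 10.75, 10.52 and 10.53 at 2 dpi, and 9.82, 10.41 and 10.43 at 7 dpi. The Rag1-/- times did not overlap, the PHIL arrays at 7 dpi lay below the other PHIL arrays, and the WT arrays at 7 dpi lay on both sides of the naive ones. Hadhb was 2.03-fold lower in Rag1-/- (log2 -1.02, SE 0.14, adjusted p = 0.00164) and 1.77-fold lower in PHIL (-0.82, SE 0.17, adjusted p = 0.00144) at 7 dpi, and changed by -0.03 in WT (adjusted p = 0.91). The fall in Rag1-/- at 2 dpi (-0.63, adjusted p = 0.0126) was -0.51 without naive replicate 1 (adjusted p = 0.0925). The Rag1-/- response minus the WT response was -0.97 at 2 dpi (SE 0.22, adjusted p = 0.0186), which was lost without Rag1-/- naive replicate 1 (-0.84, adjusted p = 0.1) or WT naive replicate 2 (-0.87, adjusted p = 0.0786). At 7 dpi it was -0.97 (SE 0.22, adjusted p = 0.0398), a call that held in 2 of 10 fits with 1 array left out, the adjusted p reaching 0.17 without Rag1-/- naive replicate 1 (-0.84).

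Acaa2, the thiolase of medium and long chains, fell in Rag1-/- at 7 dpi (log2 -1.10, adjusted p = 0.0173) and in the other strains at 2 dpi. The Rag1-/- call was lost without naive replicate 2 (-0.93, adjusted p = 0.101) and without 7 dpi replicate 1 (-1.08, adjusted p = 0.052) or 2 (-1.02, adjusted p = 0.0526). In PHIL diaphragms it read 11.61 and 11.53 naive, 11.01, 10.56 and 10.49 at 2 dpi, and 11.12, 11.22 and 11.13 at 7 dpi. In WT diaphragms it read 11.27 and 11.73 naive, 10.55, 10.35 and 10.44 at 2 dpi, and 11.09, 10.84 and 11.31 at 7 dpi. Arrays at 2 dpi were lowest in both strains (-0.88 in PHIL and -1.05 in WT), and from 2 to 7 dpi Acaa2 rose in WT (0.63, adjusted p = 0.00626). Its 4 probes ran from -1.02 to -0.22 in PHIL and from -1.05 to -0.45 in WT at 2 dpi, and from 0.20 to 0.63 in WT from 2 to 7 dpi, so the probe used gave the largest size in WT. Echs1, the hydratase, changed by -0.55 in Rag1-/- at 7 dpi (adjusted p = 0.013), under the fold needed for a call.

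The promoters of 2 members are shown because Hadhb shares its start region with its partner subunit and because Ucp3, like Plin5, holds the nuclear receptor half-site AGGTCA more than once. The RefSeq table of build GRCm38.p6 gave windows for 28 of the 34 listed genes, each of 300 bases with 250 before the start, and the half-site stood on either strand in 6 of them (21.4%): Acadm, Cd36, Ucp3, Echs1, Acadvl and Plin5. Of 27025 genes with a window 18.1% held it. The longer element TCAAGGTCA, which contains the half-site, was in 0 of the 28 members' windows (0.466% of all genes), the direct repeat with 1 base between in 0 (0.0481%), and the looser AGGNCANAGGNCA in 0 (0.451%). The start of Hadhb on the plus strand of chromosome 5 lies head to head with that of Hadha on the minus strand, with 272 bases between. Below are the 250 bases before the start on the plus strand, at chr5:30155003-30155252 for Hadhb and chr7:100472741-100472990 for Ucp3, 5′ to 3′, with the half-site in capitals.
Hadhb: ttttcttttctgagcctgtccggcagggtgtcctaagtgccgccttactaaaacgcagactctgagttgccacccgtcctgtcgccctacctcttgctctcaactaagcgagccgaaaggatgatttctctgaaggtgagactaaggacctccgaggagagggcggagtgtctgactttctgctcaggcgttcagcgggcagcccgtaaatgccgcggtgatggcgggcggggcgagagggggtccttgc
Ucp3: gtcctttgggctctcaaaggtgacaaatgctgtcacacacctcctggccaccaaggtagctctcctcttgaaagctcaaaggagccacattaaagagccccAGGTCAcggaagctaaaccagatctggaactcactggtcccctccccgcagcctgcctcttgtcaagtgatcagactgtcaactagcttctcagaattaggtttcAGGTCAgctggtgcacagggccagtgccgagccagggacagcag
Both half-sites of Ucp3 are on the plus strand, at positions -149 to -144 and -44 to -39 counted from the start, and Hadhb has none in its window.

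The auxiliary enzymes, which let unsaturated chains through the cycle, were called lower in 3 of 3 cases in Rag1-/- at 7 dpi, 2 of 3 in PHIL and 1 of 3 in WT, beside 14.9%, 11.6% and 11.8% of all genes. Decr1, the dienoyl-CoA reductase, read 12.21 and 12.29 in naive Rag1-/- diaphragms, 11.41, 11.80 and 11.94 at 2 dpi, and 11.45, 10.80 and 11.61 at 7 dpi. Infected arrays lay below the naive ones (log2 -0.97 at 7 dpi, SE 0.25, adjusted p = 0.0243), with the call lost without naive replicate 1 (-1.01, adjusted p = 0.0815) or 2 (-0.92, adjusted p = 0.103). At 7 dpi Decr1 read 10.36, 10.58 and 10.40 in PHIL, against 11.31 and 11.38 naive, and 10.52, 10.18 and 10.87 in WT, against 11.55 and 11.46 naive. In both strains infected and naive arrays stood apart (-0.90 and -0.98, adjusted p = 0.000849 and 0.0004).

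Eci1, an enoyl-CoA isomerase, read 13.57 and 13.55 in naive Rag1-/- diaphragms, 13.50, 13.28 and 13.11 at 2 dpi, and 12.60, 12.93 and 12.91 at 7 dpi. The arrays at 7 dpi were the lowest (-0.75, adjusted p = 0.0109), and the call was lost without naive replicate 1 (-0.74, adjusted p = 0.0568) or 2 (-0.76, adjusted p = 0.0518). Eci2, its mitochondrial and peroxisomal relative, fell at 7 dpi in Rag1-/- (-0.70, adjusted p = 0.0212) and PHIL (-0.89, adjusted p = 0.000562) and changed by -0.23 in WT (adjusted p = 0.252). In Rag1-/- its call was lost without naive replicate 1 (adjusted p = 0.0837) or 2 (adjusted p = 0.0889) and without 7 dpi replicate 1 (-0.58, adjusted p = 0.0645).

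Of the electron transfer genes Etfdh, the oxidoreductase that passes electrons to ubiquinone, read 9.53 and 9.38 in naive Rag1-/- diaphragms, 8.74, 8.98 and 8.83 at 2 dpi, and 8.47, 8.18 and 8.53 at 7 dpi. The 3 times did not overlap (log2 -0.60 at 2 dpi, adjusted p = 0.0196, and -1.06 at 7 dpi, adjusted p = 0.0018), and the call at 2 dpi was lost without naive replicate 1 (-0.53, adjusted p = 0.113) or 2 (-0.68, adjusted p = 0.0551) and without 2 dpi replicate 1 (-0.55). Etfa, the alpha subunit of the flavoprotein, read 13.11 and 12.98 naive, 12.87, 12.68 and 12.63 at 2 dpi, and 12.36, 12.27 and 12.44 at 7 dpi, again with no overlap (-0.69 at 7 dpi, adjusted p = 0.00637). Etfb, the beta subunit, changed by -0.27 (adjusted p = 0.201). In PHIL diaphragms Etfdh, measured there by another probe, read 11.92 and 11.86 naive and 11.28, 11.11 and 11.25 at 2 dpi. It was called lower in PHIL at that time. In PHIL diaphragms Etfa fell at 7 dpi (-0.68, adjusted p = 0.00905), which was -0.52 without naive replicate 1, under the fold needed for a call. The 4 probes of Etfa ran at 7 dpi from -0.85 to -0.18 in Rag1-/- and from -0.68 to -0.07 in PHIL. In PHIL the probe used gave the largest fall. The probes differed in sign in WT, from -0.29 to 0.24.

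Thioesterases and the remaining members had 4 of 5 called lower in Rag1-/- at 7 dpi, beside 14.9% of all genes. Acot1, a cytosolic acyl-CoA thioesterase, read 11.52 and 11.03 in naive Rag1-/- diaphragms, 9.70, 10.79 and 10.77 at 2 dpi, and 9.56, 9.54 and 9.88 at 7 dpi. Infected arrays were below naive ones, and at 7 dpi Acot1 was 3.06-fold lower (log2 -1.61, SE 0.33, adjusted p = 0.00909), a call lost without naive replicate 1 (-1.37, adjusted p = 0.0609). Acot1 and its mitochondrial neighbour Acot2 are near-identical copies, so their probes may not tell them apart. Acot1 was also called lower at 7 dpi in PHIL (-0.89, adjusted p = 0.0215) and WT (-0.92, adjusted p = 0.0172). In PHIL this was lost without naive replicate 1 (adjusted p = 0.0701) or 2 (adjusted p = 0.0992) or 7 dpi replicate 2 (adjusted p = 0.0647), and in WT without naive replicate 2 (-0.71, adjusted p = 0.149) or 7 dpi replicate 2 (-0.68, adjusted p = 0.0734).

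Plin5, which coats lipid droplets of oxidative muscle, read 8.65 and 9.12 in naive Rag1-/- diaphragms, 8.35, 8.01 and 9.02 at 2 dpi, and 7.15, 7.64 and 7.77 at 7 dpi. Arrays at 7 dpi lay below all others (log2 -1.37, SE 0.31, adjusted p = 0.0141), and the call was lost without naive replicate 2 (-1.14, adjusted p = 0.0878). Plin5 was also called lower at 2 dpi in PHIL (-1) and WT (-1.08) and at 7 dpi in WT (-0.98). Each of these calls was lost without some single arrays. Mlycd, which removes the malonyl-CoA that holds back Cpt1b, read 11.13 and 11.18 in naive Rag1-/- diaphragms, 10.74, 10.83 and 10.75 at 2 dpi, and 9.46, 10.07 and 9.97 at 7 dpi. The 3 times did not overlap, and its fall of 0.94 on the log2 scale from 2 to 7 dpi passed the test (adjusted p = 0.00466), as it did in PHIL (-0.90, adjusted p = 0.000673) and WT (-0.78, adjusted p = 0.002). Ucp3, a mitochondrial carrier of muscle, changed by -1.13 in Rag1-/- at 7 dpi (adjusted p = 0.0288), lost without naive replicate 2 (-0.85, adjusted p = 0.164) and without 7 dpi replicate 1 (adjusted p = 0.0859) or 2 (adjusted p = 0.0643), and of its probes on PHIL and WT arrays the one used was detected on 3 of 16 and the other on 12 of 16.

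Ppargc1a, the coactivator that drives mitochondrial gene expression, had the largest tested difference between Rag1-/- and WT responses at 2 dpi among the members. It read 11.85 and 11.95 in naive Rag1-/- diaphragms, 10.79, 11.19 and 11.07 at 2 dpi, and 11.09, 11.36 and 10.82 at 7 dpi. In PHIL diaphragms it read 9.09 and 8.88 naive, 10.04, 9.58 and 9.63 at 2 dpi, and 8.72, 8.09 and 8.84 at 7 dpi. In WT the values were 9.04 and 8.80 naive, 10.24, 9.92 and 9.99 at 2 dpi, and 8.38, 8.47 and 9.01 at 7 dpi. At 2 dpi every Rag1-/- array lay below, and every PHIL and WT array above, the naive arrays of its strain. Ppargc1a was 1.84-fold lower in Rag1-/- (log2 -0.88, adjusted p = 0.0104), 1.71-fold higher in PHIL (0.77, adjusted p = 0.0214) and 2.18-fold higher in WT (1.13, adjusted p = 0.00181) at 2 dpi. The Rag1-/- call was lost without naive replicate 2 (-0.83, adjusted p = 0.0599), and the PHIL call without naive replicate 1 (0.87, adjusted p = 0.0561) or 2 (0.66, adjusted p = 0.128) or 2 dpi replicate 1 (0.63, adjusted p = 0.072). From 2 to 7 dpi it fell in PHIL (-1.2, adjusted p = 0.000464) and WT (-1.43, adjusted p = 0.000132) and changed by 0.07 in Rag1-/- (adjusted p = 0.78).

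With all arrays normalised together, the Rag1-/- response of Ppargc1a at 2 dpi minus the WT response was -2.03 (SE 0.32, 95% interval -2.70 to -1.36, adjusted p = 0.00209), from -0.87 in Rag1-/- and 1.16 in WT. The call held under 17 of 17 settings and in 10 of 10 fits with 1 array left out. At 2 dpi 3 of 29 members, Acadsb, Hadhb and Ppargc1a, were called lower in this comparison and 0 higher, beside 3.82% and 2.21% of all genes. At 7 dpi 2 of 29, Acadl (-1.05, adjusted p = 0.0474) and Hadhb, were called lower and 0 higher, beside 0.727% and 0.714%. With each set normalised apart, the probes of Acadl ran at 7 dpi from -0.42 to -0.02 in WT and from -1.09 to -0.81 in Rag1-/-. For Acadl the call held in 1 of 10 fits with 1 array left out, the adjusted p reaching 0.136 without Rag1-/- naive replicate 1 (-1.08), and the value was 0.01 with no filter on dim probes. The median member had a Rag1-/- response minus WT response of 0.02 at 2 dpi and -0.46 at 7 dpi.

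PHIL and WT diaphragms were compared directly at each time, which sets the mice without eosinophils against unmodified ones. In naive diaphragms and at 2 dpi 0 of 29 members were called (0% of all genes in limma at either time) and 0 members under all 17 settings tried, with 2 and 3 members at an unadjusted p under 0.05. At 7 dpi 2 of 29 members were called lower in PHIL and 0 higher, beside 0.401% and 0.0851% of all genes. They were Hadhb, at 9.56, 9.27 and 9.54 in PHIL and 9.82, 10.41 and 10.43 in WT, and Acadsb, at 6.76, 6.81 and 6.83 in PHIL and 7.20, 7.61 and 7.36 in WT. Neither gene overlapped between the strains. Hadhb was 1.70-fold lower in PHIL (log2 -0.76, SE 0.15, adjusted p = 0.039) and Acadsb 1.51-fold lower (-0.59, SE 0.10, adjusted p = 0.0361), a size just past that needed for a call.

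Both calls rested on single arrays. That of Hadhb held in 2 of 6 fits with 1 array left out and was lost without PHIL replicate 2 (-0.67, adjusted p = 0.128) or 3 (-0.80, adjusted p = 0.137) and without WT replicate 2 (-0.67, adjusted p = 0.0953) or 3 (-0.66, adjusted p = 0.133). That of Acadsb held in 1 of 6. Its size was under the fold at -0.48 without WT replicate 2 and at -0.57 without PHIL replicate 1, and its adjusted p was 0.0879 without PHIL replicate 2, 0.137 without PHIL replicate 3 and 0.128 without WT replicate 3. In WT at 7 dpi replicate 2 was the lowest of its 3 arrays for 20 of 29 members and replicate 3 the highest for 21. Eci2 (-0.65, adjusted p = 0.0522) and Etfa (-0.58, adjusted p = 0.112) also had all PHIL arrays below all WT arrays at 7 dpi without a call, and the probes of Etfa ran from -0.63 to 0.07. For 7 of 29 members the PHIL arrays lay wholly below the WT arrays and for 0 wholly above, beside 11% and 8.89% of all genes.

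No member passed the test of a difference between the PHIL and the WT response. Limma made 0 calls among members at 2 dpi (0% of all genes lower and 0.0122% higher) and 0 at 7 dpi (0% either way), with 3 and 4 members at an unadjusted p under 0.05. The PHIL response minus the WT response at 7 dpi was -0.80 for Hadhb (95% interval -1.30 to -0.29, adjusted p = 0.25), -0.66 for Eci2 (-1.14 to -0.18, adjusted p = 0.341) and -0.66 for Etfa (-1.22 to -0.09, adjusted p = 0.423). For Acadsb it was -0.26 (adjusted p = 0.65), and Acadsb differed by -0.34 between PHIL and WT already in naive diaphragms (adjusted p = 0.423).

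**Figure D5:**
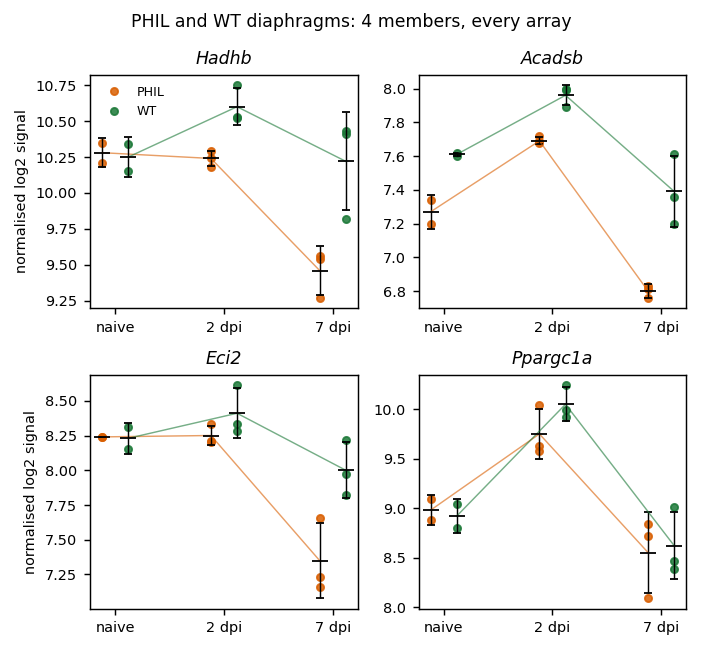
Normalised log2 signal (vertical axis) of Hadhb, Acadsb, Eci2 and Ppargc1a on each PHIL and WT array, by time (horizontal axis); bars are the mean and SD of 2 naive, 3 2 dpi and 3 7 dpi arrays. At 7 dpi the PHIL points of Hadhb, Acadsb and Eci2 lie below the WT points, with log2 differences of -0.76, -0.59 and -0.65, while those of Ppargc1a overlap.

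Other genes of lipid metabolism were counted in lists beside the members, in Rag1-/- diaphragms at 7 dpi against naive and with 14.9% of all genes lower and 17.6% higher as before. Other mitochondrial oxidation enzymes had 10 of 20 lower and 1 higher with a median of -0.73, led by Acad12 (-1.45), Acad10 (-1.21) and, in the other direction, the thioesterase Acot7 (1.2). Triglyceride storage and lipolysis genes had 8 of 18 lower and 0 higher (median -0.45), among them Gpam (-1.45), which starts glycerolipid synthesis, Lpin1 (-1.18) and Fitm2 (-0.98). Transcriptional control and fuel choice genes had 7 of 18 lower and 1 higher (median -0.59), with Prkaa2, a catalytic subunit of AMP-activated kinase, at -1.40, Pdk3 at 1.40 and Ucp1 at -1.47 (adjusted p = 0.6). Peroxisomal oxidation genes had 2 of 19 lower and 0 higher (median -0.40), with Pex7 at -1, Decr2 at 0.94 (adjusted p = 0.0764) and Abcd2 at -0.91 (adjusted p = 0.0616). Other uptake and activation genes had 2 of 17 lower and 5 higher (median -0.10), with the acyl-CoA synthetase Acsl3 at 1.10, Acss1 at -0.98 and Slc27a1 at -0.90. The 3 other carnitine genes had 0 calls, at -0.93 for Slc25a29, -0.36 for Slc22a5 and -0.01 for Slc22a4.

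Fatty acid synthesis and elongation genes had 2 of 13 higher and 0 lower in Rag1-/- at 7 dpi, with a median of 0.40, namely the desaturase Scd2 (2.12, adjusted p = 0.00688) and the elongase Elovl1 (1.40, adjusted p = 0.000403); Acly, which supplies cytosolic acetyl-CoA, changed by 0.70 (adjusted p = 0.208). The same list had 7 of 13 higher in PHIL and 5 of 13 in WT at 7 dpi and 0 lower in both, beside 14.9% and 16.3% of all genes higher. Between PHIL and WT at 7 dpi these lists had 0 calls.

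Markers of cell types moved beside the members. Of all genes in Rag1-/-, 6.8% were called higher at 2 dpi, and 14.9% lower and 17.6% higher at 7 dpi. In Rag1-/- diaphragms the summed linear signal of the members was 287000 to 296000 naive, 259000 to 269000 at 2 dpi and 229000 to 241000 at 7 dpi. Such a sum is weighted to the brightest genes, here Lpl and Fabp3 at the top of the signal range (naive means 16.02 and 16.03). The mean log2 signal of the members was 11.18 to 11.27 naive, 10.67 to 10.87 at 2 dpi and 10.2 to 10.38 at 7 dpi. The summed signal of 23 mature fibre markers was 794000 to 820000, 772000 to 795000 and 703000 to 746000, with 0 higher and 9 lower at 7 dpi (median -0.53). Adipocyte markers summed to 28200 to 36500 naive and 18700 to 27500 at 7 dpi (3 of 10 lower). The 3 were Plin4, Aqp7 and Lipe, while Adipoq, Lep, Cidec and Plin1 changed by 0.18, -0.09, -0.01 and -0.15. Fabp4, Pck1 and Car3 changed by -0.53, -0.37 and -0.58 without a call. Markers of regenerating muscle summed to 3650 to 5820, 61000 to 69000 and 34800 to 39000 (8 of 9 higher at 2 dpi, 4 at 7 dpi). The probes of Mymk, called higher at 2 dpi, and of Lipe were each detected on 2 of 8 arrays, the fewest that the filter keeps. Their calls may follow from the filter and are not read as support. The sum of 13 endothelial markers was 24200 to 26900, 15700 to 18300 and 14400 to 18600 (8 lower, median -0.76), and that of 10 macrophage and monocyte markers 9390 to 11400, 21000 to 37000 and 37100 to 52900 (9 higher, median 2.2). In each strain the members and the endothelial markers were lower, and the macrophage and monocyte markers higher, at both times than in naive diaphragms.

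In PHIL diaphragms the members summed to 159000 to 161000 naive, 124000 to 133000 at 2 dpi and 135000 to 145000 at 7 dpi, and in WT to 156000 to 165000, 126000 to 138000 and 127000 to 155000. These sums are weighted to the brightest members, Lpl, Fabp3 and Acadm. The mean log2 signal of the members was 10.01 to 10.08, 9.63 to 9.73 and 9.57 to 9.6 in PHIL. In WT it was 10.1 to 10.15, 9.66 to 9.78 and 9.5 to 9.85. Of all genes, 7.94% were called lower at 2 dpi and 11.6% at 7 dpi in PHIL, and 10.3% and 11.8% in WT. Called higher were 10.6% and 14.9% in PHIL, and 13.1% and 16.3% in WT. Mature fibre markers summed to 432000 to 445000, 412000 to 423000 and 388000 to 430000 in PHIL (5 of 22 lower at either time) and to 446000 to 459000, 424000 to 445000 and 411000 to 427000 in WT (6 and 4 of 22 lower). Endothelial markers summed to 8830 to 10100, 6110 to 6290 and 5750 to 6580 in PHIL (8 and 6 of 13 lower) and to 8780 to 10100, 5370 to 6340 and 5720 to 6690 in WT (9 and 5 of 13 lower). Macrophage and monocyte markers summed to 2630 to 2970, 8000 to 8340 and 9380 to 11400 in PHIL (9 and 8 of 10 higher) and to 2050 to 2280, 6820 to 7850 and 7920 to 10300 in WT (9 and 10 of 10 higher). Of 7 T cell markers 4 were called higher and 2 lower at 2 dpi and 5 higher and 1 lower at 7 dpi in PHIL. In WT 2 were called higher and 1 lower and then 5 higher and 0 lower. Fitted log2 changes of Cd8b1 at 7 dpi were 4.33 in PHIL and 3.12 in WT. Of the 16 arrays, Cd3d was detected on 9, Cd3e, Cd3g and Cd8b1 each on 7, Cd2 on 8 and Cd247 on 4. Cd4 and Cd8a were detected on 0 and were not tested. A probe detected on part of the arrays can pass the filter through the arrays where it is high. These counts and sizes are therefore not read as a measured rise. The sum of the 7 T cell markers was 1620 to 2020, 1150 to 1430 and 3230 to 3690 in PHIL and 1370 to 1460, 1020 to 1120 and 2080 to 3200 in WT. Between PHIL and WT at 7 dpi 0 genes of any marker list were called, and Cd3d, Cd3g and Cd8b1 each differed by 1.03 (adjusted p = 0.112, 0.0628 and 0.0709). The part of these markers in the changes of the members was not tested.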

How the data were processed

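RNA of 24 diaphragms was hybridised to Illumina BeadChips (MouseRef-8, version 2), 1 array each. The deposited signal intensities were made by the authors with GenomeStudio 1.8 and are not normalised, and a deposited detection p-value goes with each. A table of intensities normalised by the authors, with medians of 185.2 to 185.7, served as an alternative; its scale is linear. For their tests the authors subtracted background, stabilised the variance and applied robust spline normalisation in lumi, but whether these steps made that table is not given in the sources used here.

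Signals were background corrected and quantile normalised by neqc (offset 16) in limma 3.58.1 under R 4.3.3, apart for 8 Rag1-/- and 16 PHIL and WT arrays, and together for comparisons of Rag1-/- and WT responses. Of 25697 probes 1719 had no gene name. A gene was represented by its detected probe of widest interquartile range, chosen in each set, so the probe can differ between sets. Group means were fitted with limma, with 5, 10 and 15 residual degrees of freedom, and tested on simulated data. P-values were adjusted over all genes tested, the 3 Rag1-/- comparisons together. They rest on the spread between diaphragms, pooled over all groups of a fit and moderated across genes, and the number of arrays limits the precision. Members and lists were chosen with earlier results of these data known. Array values are printed for the 2 members of each role with the largest Rag1-/- change at 7 dpi, members called higher in any comparison, those called between PHIL and WT, and Cpt1b, Acaa2 and Mlycd; of other lists the 3 largest changes are named. Settings tried concerned background, scaling, filter, probe, weights, threshold, covariate, block and left-out arrays.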

Additional observations from a re-analysis of the deposited data

Results flagged for a closer look

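For 4 members the response to infection differed between Rag1-/- and WT diaphragms by the test of the difference itself (limma, all arrays normalised together). At 2 dpi the Rag1-/- response minus the WT response was -0.95 for Acadsb (adjusted p = 0.00847), -0.97 for Hadhb (adjusted p = 0.0186) and -2.03 for Ppargc1a (adjusted p = 0.00209), each lower than naive in all 3 Rag1-/- arrays and higher in all 3 WT arrays. At 7 dpi it was -1.05 for Acadl (adjusted p = 0.0474) and -0.97 for Hadhb (adjusted p = 0.0398). Strain and array set cannot be told apart in these differences. With 1 array left out, the call of Ppargc1a held in every fit, and each of the others was lost in at least 1.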

How the results depend on the processing

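Of the log2 changes of single members recomputed under other settings and with arrays left out, 5661 kept their direction and side of the threshold, 302 lost a call, 121 gained one and 3 reversed, all with no filter on dim probes: Acsl4 at 7 dpi in WT (-0.64) and PHIL (-0.23), and Acadl in the Rag1-/- response minus the WT response at 7 dpi (0.01). Counts of members called are given against their reported value in brackets; except where named, the cause was not tested. With a 2-fold threshold, which by construction calls fewer, Rag1-/- had 1 at 2 dpi (8), 14 at 7 dpi (22) and 2 from 2 to 7 dpi (7), PHIL had 1 (12), 2 (10) and 1 (8), WT had 5 (10), 2 (9) and 1 (4), PHIL against WT at 7 dpi had 0 (2), and the Rag1-/- response minus the WT response had 1 at 2 dpi (3) and 1 at 7 dpi (2). With the adjusted p alone, PHIL had 19 at 2 dpi and 17 at 7 dpi, WT 16, 14 and, from 2 to 7 dpi, 12, and Rag1-/- 11 from 2 to 7 dpi. With the level of Eif2s3y as a covariate, Rag1-/- had 3, 1 and 1, PHIL against WT at 7 dpi 1, and the Rag1-/- response minus the WT response at 7 dpi 0, which was 1 with Eif2s3y detected or not as a term, a setting chosen after seeing the data. With arrays scaled to a common median, PHIL had 7 and 2, WT 3 at 7 dpi, Rag1-/- 4 from 2 to 7 dpi, PHIL against WT 0, and the Rag1-/- response minus the WT response 5 at 2 dpi and 11 at 7 dpi; the share of all calls that were higher was then 77%, 63.1% and 71.4% in the 3 Rag1-/- comparisons (69.1%, 54.1% and 60.6% before) and 2.92% and 6.75% in the response difference (36.6% and 49.6%). On the authors' normalised table and with no background correction alike, Rag1-/- had 4 at 2 dpi, WT 5 at 7 dpi, PHIL 4 from 2 to 7 dpi, PHIL against WT 1 and the response difference at 7 dpi 4. The response difference at 7 dpi was also 4 with neqc per set and with trended and robust eBayes, 1 with the probe of highest mean, and 0 with no filter and with only the groups compared. PHIL against WT at 7 dpi had 1 with normexp and 0 with no filter and with only the groups compared. Rag1-/- at 2 dpi had 5 when its comparisons were adjusted each alone. With the replicate number as a block PHIL against WT at 7 dpi and the response difference at 7 dpi had 0, and no other count of members moved by over 1.5 times; the numbers do not pair the samples, as deviations of same-numbered arrays correlated from -0.185 to 0.143 in Rag1-/- (3 of 7 over 0.1) and from -0.176 to 0.222 in PHIL and WT (4 of 36). With 1 array left out the counts ran from 3 to 8 at 2 dpi, 12 to 24 at 7 dpi and 3 to 8 from 2 to 7 dpi in Rag1-/-, from 5 to 11, 7 to 10 and 6 to 9 in PHIL, from 7 to 12, 6 to 10 and 3 to 6 in WT, from 0 to 3 for PHIL against WT at 7 dpi, and from 1 to 4 and 0 to 2 for the response difference at 2 and 7 dpi. Over all genes the counts called ranged over the settings from 373 to 1142 (853), 521 to 3393 (2818) and 526 to 2792 (1981) in Rag1-/-, 550 to 2638 (1529), 789 to 3623 (2181) and 528 to 3252 (1671) in PHIL, 683 to 3292 (1920), 844 to 3828 (2310) and 530 to 3046 (1536) in WT, 0 to 165 (40) for PHIL against WT at 7 dpi, and 178 to 1370 (481) and 29 to 978 (115) for the response difference. With 2 naive arrays per strain, changes under the fold needed for a call were not resolved for dim probes such as those used for Acsm5, Acsl4 and Ucp3, which were near background on part of the arrays, nor for Lpl and Fabp3 at the top of the signal range in Rag1-/-.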
